A study of Homo sapiens with 3 samples.

Results

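CD44 and 9 other genes used as markers of colon stem cells and colon cancer stem cells (PROM1, ALCAM, CD24, ALDH1A1, OLFM4, SOX9, MSI1, MSI2 and LRIG1) were followed on microarrays of HCT116 cells with reduced SMARCA4. All probes carrying 1 of these gene names were taken, each kept apart, which gave 13 probes of the 58201 on the array and 10 genes of its 43317 gene names. The rule for taking a probe used gene names and no measured value.

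HCT116 is an established human colorectal carcinoma cell line, and SMARCA4 is the ATPase of the SWI/SNF chromatin remodelling complex. The cells were transfected with small interfering RNA (siRNA) against SMARCA4, giving SMARCA4-KD1 and SMARCA4-KD2, or with a scrambled negative control, giving NC. Each of the 3 conditions was measured once, on 1 array of bulk RNA from 1 cell line, so differences between conditions carry no replicate check. The comparison asks which transcripts depend on SMARCA4 in these cells. In the sample records the titles name SMARCA4 but the treatment entries name PRMT1, and these entries supplied the numbers 1 and 2 of the knockdowns. Both knockdowns were hybridized on 1 slide and NC on a different slide, so slide and condition cannot be told apart. The records do not say which of the siRNAs used was put on which array.

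The colon lining is renewed by stem cells at the base of its crypts, and surface proteins that enrich for cells able to start tumours in mice are used to sort colon cancer cells. CD44 is a receptor for hyaluronan and a Wnt target gene whose transcript is spliced into many forms, and PROM1 (CD133), ALCAM (CD166) and CD24 are other surface proteins used in such sorts. ALDH1A1 makes retinoic acid from retinal, OLFM4 is a secreted protein of crypt base cells, SOX9 is a transcription factor of progenitors, MSI1 and MSI2 are RNA-binding proteins of the Musashi family, and LRIG1 restrains ERBB receptors and marks a group of crypt stem cells.

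The SMARCA4 probe read 3960 and 4129 on the arrays of SMARCA4-KD1 and SMARCA4-KD2 and 14026 on that of NC (processed signal, in intensity units), which left 26.6% and 28.8% of the NC level after scaling. This matched the SMARCA4 in the titles. Between 45.7% and 47.3% of probes were well above background on each array by the extraction software's own test, and the dimmest such probe had a signal of 16.4 to 17.7. Epithelial genes were bright on every array (KRT19 at 202585 to 217698, EPCAM at 30570 to 40025), except CDH17, an intestinal cadherin, which was not well above background on any array. CLDN4, a tight junction protein, was the 1 of 6 epithelial genes compared that passed 1.5-fold in both knockdowns, lower by log2 -0.67 and -0.68. Of all genes, each read by its brightest probe, 8.6% were lower and 6.83% higher in both. Of 13 genes of fibroblasts, endothelium and blood, 7 were not well above background on any array, among them COL3A1, DCN, PECAM1, CD3E and HBB. The other 6, led by COL1A1 at 347.7 to 477.4, did not pass 1.5-fold in 1 direction in both knockdowns. The signals of all 13 summed to 774 with SMARCA4-KD1, 680 with SMARCA4-KD2 and 604 with NC. The part of these genes in the results was not tested. In bulk RNA, fewer cells of a type and less RNA per cell cannot be told apart.

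Among the markers, CD24 was lower in both knockdowns, 1 of 2 CD44 probes and 1 of 2 MSI2 probes were higher, and PROM1, ALCAM, SOX9, MSI1, LRIG1 and the brighter probes of CD44 and MSI2 stayed within 1.5-fold of NC. OLFM4 and 1 ALDH1A1 probe were not well above background on any array. The other ALDH1A1 probe was above it in SMARCA4-KD2 alone. Of the 13 probes, 10 were well above background on all 3 arrays, and these came from 8 genes. A probe was called changed at 1.5-fold, the fold threshold of the study's methods, with no test, because each condition had 1 array. In SMARCA4-KD1, 1 of the 10 marker probes compared was lower and 2 were higher, where 12.5% and 12% of all probes compared were lower and higher. In SMARCA4-KD2, 1 of 11 was lower and 3 were higher, against 10.1% and 10.5% of all probes. Of these 3, 1 was the ALDH1A1 probe above background in SMARCA4-KD2 alone. It entered the count only through the array where it was high, and its fold is a limit set by the floor. In both knockdowns at once, 1 of 10 was lower and 2 were higher, against 8.52% and 7.03% of all probes. With 10 or 11 probes compared, nothing particular to the markers is read from these counts. SMARCA4-KD1 had a median log2 fold change of -0.10 over the marker probes and SMARCA4-KD2 of -0.07, beside 0.02 and 0.03 over all probes.

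**Figure D1:**
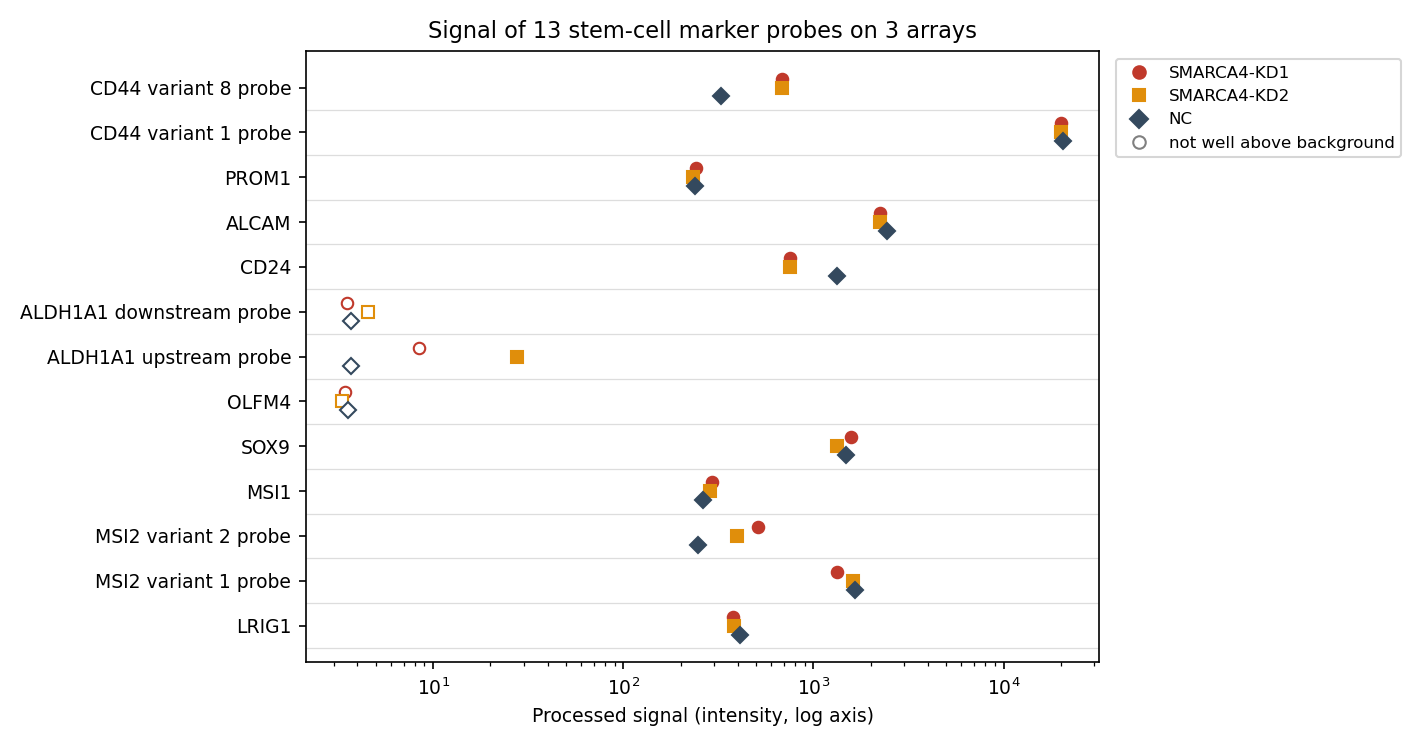
Processed signal (x axis, intensity before scaling between arrays, log axis) of the 13 probes of the 10 marker genes on the 3 arrays, with 1 point per array and open symbols where the probe was not well above background. CD24 and the CD44 variant 8 and MSI2 variant 2 probes show the NC point apart from both knockdown points, and the OLFM4 and ALDH1A1 points lie near the bottom of the scale.

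The errors given below as plus or minus are those of the extraction software for the difference between 2 arrays, on the log2 scale. They were 0.20 or 0.21 for every marker probe well above background on all arrays, and were averaged, not reduced, over repeated spots. The median SD over repeated spots was smaller, 0.034 to 0.039 on the log2 scale. The errors hold nothing of the spread between cultures. Probes are named for the transcript variant that the array's annotation states, and their positions are those of the array's annotation on hg19. Whether a probe lies in a coding or an untranslated exon was not analysed here.

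CD44, the hyaluronan receptor, is read by a pair of probes on the plus strand. The variant 8 probe at chr11:35244791-35244850 lists 1 RefSeq transcript, and the variant 1 probe at chr11:35253812-35253871 lists 4 and starts 9021 bases further along. The central 30 bases of each are shown because the readings of these probes parted.
CD44 variant 8 probe: cctcccttcagcttcctcattttcccttgg
CD44 variant 1 probe: ggtttttgtatatttattgatggatcaata

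At the CD44 variant 8 probe, SMARCA4-KD1 read 681.7, SMARCA4-KD2 read 681 and NC read 326. Both knockdown arrays stood at about the same level, well clear of NC. Against NC, SMARCA4-KD1 differed by a log2 fold change of 0.98 ± 0.20 and SMARCA4-KD2 by 1.03 ± 0.20, or 1.97-fold and 2.04-fold higher. Of all probes compared, 3.34% were at least as far above NC in both knockdowns. At the variant 1 probe, SMARCA4-KD1 read 19928, SMARCA4-KD2 read 19971 and NC read 20572. The 3 arrays lay close together, with log2 fold changes of -0.13 ± 0.20 and -0.07 ± 0.20, both smaller than the error. The change of the variant 8 probe was larger than that of the variant 1 probe by 1.11 ± 0.29 in each knockdown. The probe listed for more CD44 forms thus stood near NC, and the probe listed for 1 form was higher. Splits of at least 1.5-fold were not rare on these arrays. Of 4527 genes with at least 2 probes, 10.7% had changes of their dimmest and brightest probes that far apart, the same way in both knockdowns. The split of CD44 was larger than this threshold, and the share of genes with a split as large was not computed.

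CD24, a small mucin-like protein anchored to the membrane, had a signal of 755.2 with SMARCA4-KD1, 754.5 with SMARCA4-KD2 and 1336 with NC. Both knockdowns were lower than NC and almost equal to each other. Against NC, SMARCA4-KD1 differed by a log2 fold change of -0.91 ± 0.20 and SMARCA4-KD2 by -0.86 ± 0.20, or 1.88-fold and 1.81-fold lower, and 3.35% of all probes were at least as far below NC in both. The central 30 bases of its single probe are shown because RefSeq lists copies of CD24 that it may also read.
CD24 probe: cagatcgaacagttttgaagctactgtgtg
The array's annotation places this probe at a copy elsewhere in the genome, whereas RefSeq (GRCh38.p14) places CD24 on chromosome 6 and lists 5 CD24 pseudogenes. Whether the probe also reads transcripts of these copies was not tested, so the value is uncertain as to its source.

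PROM1, a pentaspan membrane protein of cell protrusions, was read by a probe at chr4:15982046-15982105. SMARCA4-KD1 read 241.1, SMARCA4-KD2 read 232.5 and NC read 237.1, and the log2 fold change was -0.06 ± 0.21 in both knockdowns. No array stood apart. ALCAM, an adhesion molecule of the immunoglobulin family, was read by a probe at chr3:105294613-105294672. SMARCA4-KD1 read 2229, SMARCA4-KD2 read 2245 and NC read 2426. Its log2 fold changes of -0.21 ± 0.20 and -0.14 ± 0.20 were about the size of the error or below it.

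The Musashi genes code for RNA-binding proteins that repress translation of their targets. MSI1 was read by a probe at chr12:120780210-120780269, where SMARCA4-KD1 read 291.2, SMARCA4-KD2 read 284.5 and NC read 262.8. Its log2 fold changes of 0.06 ± 0.21 and 0.08 ± 0.21 lay within the error. MSI2 has a pair of probes whose readings parted, as those of CD44 did. The variant 2 probe lies at chr17:55710117-55710176, and the variant 1 probe at chr17:55757022-55757081 starts 46905 bases further along. The central 30 bases of each are shown because the readings of MSI2 depend on which is used.
MSI2 variant 2 probe: agtttgtgagaagtgacccgcacgcttcca
MSI2 variant 1 probe: tcgagggttgactacatctcatcatctcac

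At the MSI2 variant 2 probe, SMARCA4-KD1 read 512.4, SMARCA4-KD2 read 394.2 and NC read 245.8. Both knockdowns were higher than NC, SMARCA4-KD1 by more. Against NC, SMARCA4-KD1 differed by a log2 fold change of 0.98 ± 0.21 and SMARCA4-KD2 by 0.65 ± 0.21, or 1.97-fold and 1.57-fold higher, and 7.81% of all probes were at least as far above NC in both. With normexp background correction the value in SMARCA4-KD2 was 0.53, below 1.5-fold. At the variant 1 probe, SMARCA4-KD1 read 1333, SMARCA4-KD2 read 1616 and NC read 1657. Here SMARCA4-KD1 stood lowest, with a log2 fold change of -0.40 ± 0.20, short of 1.5-fold, and SMARCA4-KD2 lay at -0.07 ± 0.20. The change of the variant 2 probe was larger than that of the variant 1 probe by 1.37 ± 0.29 with SMARCA4-KD1 and by 0.72 ± 0.29 with SMARCA4-KD2.

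**Figure D2:**
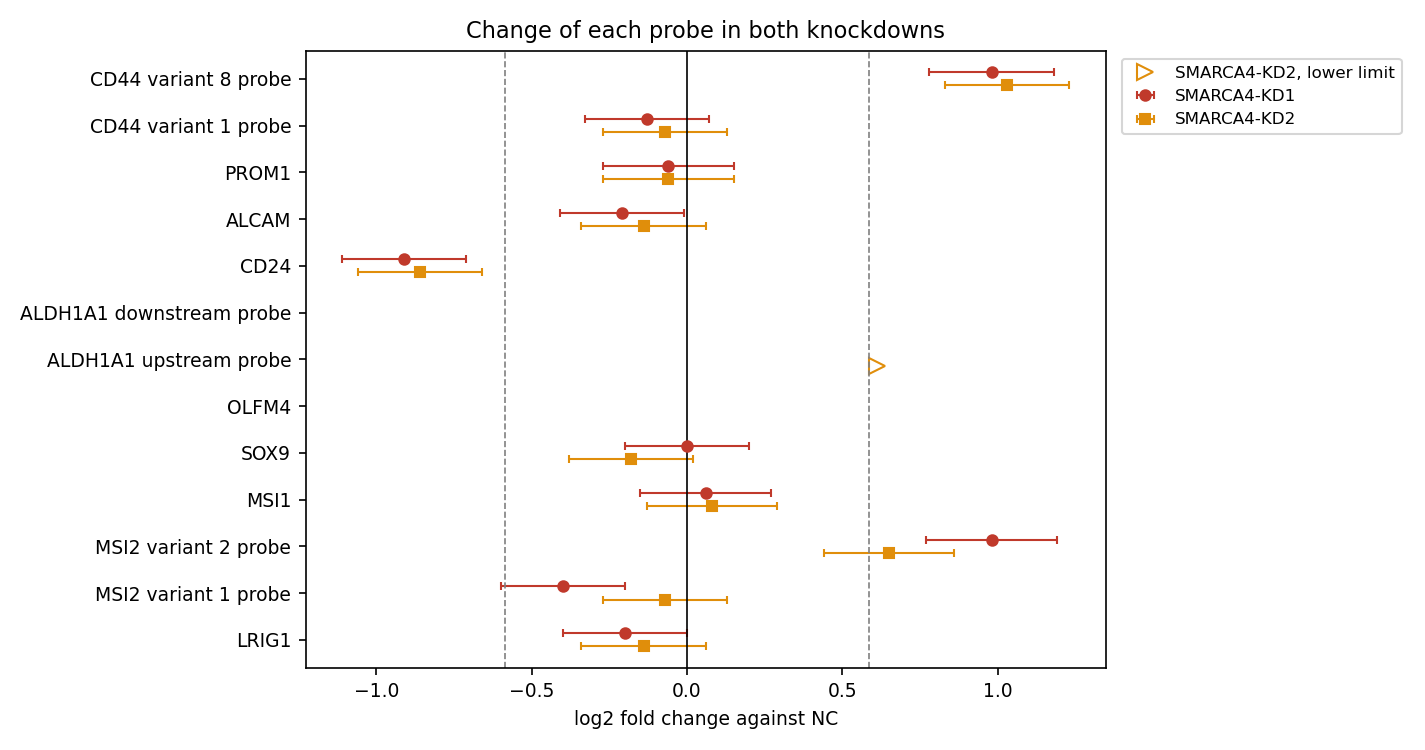
Log2 fold change against NC (x axis) of each marker probe in SMARCA4-KD1 and SMARCA4-KD2, with bars for the extraction software's error and dashed lines at 1.5-fold. The CD44 variant 8 and MSI2 variant 2 probes lie beyond the upper line and CD24 beyond the lower line in both knockdowns, the open triangle of the ALDH1A1 upstream probe is a lower limit, and OLFM4 and the ALDH1A1 downstream probe have no value because no array was well above background there.

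SOX9, which is active in crypt progenitors, was read by a probe at chr17:70121841-70121900. SMARCA4-KD1 read 1574, SMARCA4-KD2 read 1336 and NC read 1481, so that NC lay between the knockdowns. The log2 fold changes were 0.00 ± 0.20 and -0.18 ± 0.20.

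LRIG1, a transmembrane protein that lowers ERBB receptor levels, is the only marker whose probe at chr3:66429597-66429656 is printed on 10 spots of each array. The lowest, median and highest spot were 354, 380 and 409 with SMARCA4-KD1, 364, 380 and 399 with SMARCA4-KD2, and 377, 412 and 445 with NC. The spots of NC overlapped those of both knockdowns before scaling. After division by each array's 75th percentile, which was lowest on the NC array, most NC spots lay above every knockdown spot. The SD over spots was 0.078, 0.045 and 0.068 on the log2 scale. Against NC, SMARCA4-KD1 differed by a log2 fold change of -0.20 ± 0.20 and SMARCA4-KD2 by -0.14 ± 0.20, short of 1.5-fold in each. Spots of 1 array share the same RNA and are no replicates of a condition.

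OLFM4 and ALDH1A1 were at or near the background. OLFM4, at chr13:53626095-53626154, read 3.46 with SMARCA4-KD1, 3.31 with SMARCA4-KD2 and 3.57 with NC, none well above background, so no fold was computed. The ALDH1A1 downstream probe, at chr9:75516136-75516195, gave 3.53, 4.56 and 3.70 in the same order and was also not well above background on any array. The ALDH1A1 upstream probe, at chr9:75540401-75540460, read 8.42 with SMARCA4-KD1, 27.6 with SMARCA4-KD2 and 3.71 with NC. This probe was well above background with SMARCA4-KD2 alone, and its level there was at least 1.53-fold higher than that of NC and at least 1.69-fold higher than that of SMARCA4-KD1. These limits set the measured signal against the lowest signal well above background on the other array, or against the probe's own where that was higher. The extraction software's error for the difference from NC was 1.46 on the log2 scale, larger than the limit of 0.61. The limit fell below 1.5-fold with normexp (0.24), with quantile normalization (0.57) and with the percentile taken over probes well above background (0.56). With the deposited table of the whole series it was 1.26, but 0.61 with that table without 1 EGFR probe, which lowers its floor. With no floor the value was 2.86. The last 30 bases of this probe are shown, with capitals at AATAAA, the hexamer of polyadenylation signals.
ALDH1A1 upstream probe: tgctctccacgtggcatctttAATAAAaga
It was 1 marker probe of 13 that held these letters on its own strand, as 7.85% of all probes did. The downstream probe of the gene did not rise above background with it.

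Both knockdowns gave similar values for the markers. Among the 10 probes well above background on all arrays, the log2 difference of SMARCA4-KD1 from SMARCA4-KD2 ran from -0.33 at the MSI2 variant 1 probe to 0.33 at the MSI2 variant 2 probe, beside an SD of 0.42 over all probes. This SD includes dim probes not well above background on every array, which the range of the markers leaves out. The ALDH1A1 upstream probe was the 1 marker probe at least 1.5-fold apart between the knockdowns, as 6.47% of all probes were. Both comparisons share the NC array and so are not independent of each other.

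With limma across all 29333 probes that were well above background somewhere among the 3 arrays, both knockdowns together against NC left 1 residual degree of freedom, and the NC array was taken to vary like the knockdown arrays. The residual spread thus came only from the difference between the knockdown arrays, which shared 1 slide. It holds nothing of the difference between slides, so no p of these fits, however small, tells the knockdown from the slide. After Benjamini-Hochberg adjustment, 0 of 29333 probes (0.0%) passed 0.05, and the smallest adjusted p of the marker probes was 0.0779, for CD44 variant 8 and CD24. The MSI2 variant 2 probe had an adjusted p of 0.109 by limma, and the variant 1 probes of CD44 and MSI2 had 0.45 and 0.455. At an unadjusted p below 0.05, 3 marker probes passed (CD44 variant 8, CD24 and MSI2 variant 2), as did 30.8% of all probes. The same 3 passed after adjustment when limma was run on the probes well above background on all arrays, with adjusted p of 0.00137 for CD44 variant 8, 0.00176 for CD24 and 0.00916 for MSI2 variant 2. In that run 26.6% of all probes passed. The limma calls thus turned on the filter and, as given under the processing alternatives, on the scaling, the background correction and the floor for dim values. A p above the threshold does not show that values did not differ. In the run across all 29333 probes, the SMARCA4 probe itself was not called. It had the same adjusted p as CD44 variant 8 and CD24, which was the smallest among all probes.

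Taking each gene by its brightest probe, 1 of the 8 marker genes compared in both knockdowns (CD24) was lower and 0 were higher in both, beside 8.6% and 6.83% of all genes. CD44 and MSI2 are then read by the probes that stayed near NC. The same reading was made for lists of related genes, where the error was 0.20 or 0.21 on the log2 scale unless another is given. The counts of each list stand beside the same shares, 8.6% lower and 6.83% higher among all genes. With so few genes per list, nothing particular to a list is read from its counts.

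Of 19 genes of the crypt stem-cell signature, 16 were compared, of which 3 were lower and 1 higher in both knockdowns. LGR5, the receptor that defines crypt base stem cells, ASCL2, a transcription factor of crypt base cells, and SMOC2 were not well above background on any array, as OLFM4 was not. PHLDA1 was lower by log2 -1.23 and -1.19 (SMARCA4-KD1 and SMARCA4-KD2, in this order throughout the lists). LGR4, an R-spondin receptor related to LGR5, was lower at -0.90 in both, and SLC12A2, an ion cotransporter, at -0.69 and -0.87. CDK6, a cell cycle kinase, was higher by 1.08 and 0.76. EPHB2 was not counted as lower, because its brightest probe, at -0.37 and -0.59, was short of 1.5-fold in SMARCA4-KD1. Its 2 other probes were each more than 1.5-fold lower in both knockdowns, so the reading of EPHB2 depends on the probe. The median of the list was -0.01 and -0.05, near that of all genes at 0.02 and 0.04.

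Of 12 other genes used to sort colon cancer stem cells, 11 were compared, with 2 lower and 0 higher. MET, the receptor of hepatocyte growth factor, was lower by log2 -0.67 and -0.75. DCLK1, a kinase of tuft cells, had a signal of 34.4 in NC and was not well above background in either knockdown, at least 2.16-fold and 2.15-fold lower, with an error of 0.65 on the log2 scale. EPCAM, which is sorted together with CD44, was at 40025, 37000 and 30570 and short of 1.5-fold. Among 8 pluripotency factors 6 were compared: NANOG was well above background in NC alone (at least 2.30-fold and 2.29-fold lower), and LIN28B was so in the knockdowns alone (at least 1.59-fold and 1.71-fold higher), with errors of 0.39 to 0.44 on the log2 scale for this pair. NANOG has near-identical pseudogene copies that its probe may also read. The medians were -0.35 and -0.26 for the sorting genes and 0.23 and 0.16 for the pluripotency factors.

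Relatives of the markers differed in direction. Of 19 relatives 13 were compared, with 3 lower and 2 higher in both knockdowns, beside 8.6% and 6.83% of all genes. The median was -0.38 and -0.26. MCAM, an adhesion molecule of the same family as ALCAM, was lower by log2 -0.96 and -1.04, and OLFM1 by -0.88 in both. LRIG2 was lower by -0.89 and -0.73 at its brightest probe, while another of its probes stood slightly above NC in both knockdowns. SOX8, of the same SOX group as SOX9, was higher by 0.71 and 0.67, and SOX4 by 0.77 and 0.74. ALDH1A3, a retinal dehydrogenase of the ALDH1A1 family, read 18485 with SMARCA4-KD1, 19326 with SMARCA4-KD2 and 22655 with NC, at -0.38 and -0.26.

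The CD44 system list holds 23 genes that make or cut hyaluronan, bind or shed CD44, link it to actin or splice it. Of 20 compared, 2 were lower and 3 higher. SPP1 (osteopontin), a CD44 ligand, had a signal of 22.3, 24.8 and 80 and was lower by log2 -1.93 ± 0.32 and -1.72 ± 0.29. HMMR, another hyaluronan receptor and a mitotic gene, was lower by -0.82 and -0.89. HAS3, a hyaluronan synthase, was higher by 1.25 and 1.06 at its brighter probe, and its other probe stayed short of 1.5-fold. ESRP2, an epithelial splicing regulator of CD44, was higher by 0.80 and 0.84. SLC3A2, the heavy chain of several amino acid transporters, was higher by 0.76 and 0.69. ESRP1, the closest relative of ESRP2, gave 562, 557 and 559.4, with no array apart. The list's median was -0.04 and 0.01.

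Of 21 colon differentiation markers, 11 were not well above background on any array, among them FABP1, VIL1, TFF3 and ATOH1, and 8 were compared. By their brightest probes, 7 were well above background on all arrays, among them CA2 (5071, 5564 and 5546), MUC2, SPDEF and FCGBP. KRT20, a keratin of differentiated colon cells, was the 1 gene higher in both, with signals of 40.2 with SMARCA4-KD1 and 50.8 with SMARCA4-KD2. In NC it gave 17.5 and was not well above background, and the knockdowns were at least 2.15-fold and 2.81-fold higher, with errors of 0.38 and 0.37 on the log2 scale. The median of the list was 0.10 and 0.05. CDX2, a transcription factor of the intestine, gave 1176, 1178 and 1161 on the 3 arrays.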

How the data were processed

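Labelled cRNA of HCT116 cells was hybridized to 3 arrays, each with 1 colour (Cy3), of an Agilent SurePrint G3 Human design. Spot intensities were deposited as scanner output, made by the authors with version 10.7.1.1 of Agilent's Feature Extraction, which subtracts the background. A deposited table of the whole series holds the same processed intensity, except at 1 EGFR probe, where it differs from the scanner output. For the analysis here, spots flagged as outliers were left out (30 probes lost all spots), spots of a probe were averaged, and log2 intensity minus each array's 75th percentile was compared between arrays in Python 3.11.15. Values not well above background were set to a floor, the lowest signal well above background, where this was higher, and folds against them are limits. A probe was kept if any array had it well above background. limma 3.58.1 in R 4.3.3 (lmFit, eBayes with trend) was run across all of them and tested on simulated data. The number of arrays limits the precision. Named genes were every probe of the 10 markers, and genes of the other lists at least 1.5-fold apart the same way in both knockdowns, with levels of marker lists. The markers and lists were chosen with earlier results of these data known. Alternatives were other scalings, background corrections, filters, floors, tables and folds. The siRNA sequences are not reported here.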

Additional observations from a re-analysis of the deposited data

How the results depend on the processing

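Across 8 other settings, CD24 stayed lower (log2 -0.96 to -0.84) and the CD44 variant 8 probe higher (0.87 to 1.03). With normexp, the count of marker probes higher was 1 in SMARCA4-KD2 and 1 in both knockdowns (MSI2 variant 2 and ALDH1A1 fell below 1.5-fold in SMARCA4-KD2), and 0 were apart between the knockdowns, as also among probes well above background on all arrays. In SMARCA4-KD2, 2 marker probes were higher with quantile normalization, with the percentile taken over probes well above background and with the filter set to all arrays. At 2-fold, 0 marker probes were lower or higher in SMARCA4-KD1, 0 lower and 1 higher in SMARCA4-KD2, 0 either way in both, 0 marker genes lower in both, and 0 probes apart between the knockdowns. By limma with adjusted p, where 0 were called, 7 marker probes were called with no filter on dim probes (which lets in probes whose values lie at the floor), 3 with no floor, 3 with normexp, 2 with the percentile taken over probes well above background, 2 with quantile normalization, 3 with the series-level table, 3 with the filter set to all arrays and 3 at an unadjusted p. The same table without 1 EGFR probe, which lowers its floor and was left out after seeing the data, gave 0. Marker genes higher in both numbered 1 with no floor, and 0 to 1 with either knockdown left out; the 1 was ALDH1A1, seen without SMARCA4-KD1. The ALDH1A1 upstream probe in SMARCA4-KD2 went to a log2 change of 2.86 with no floor. The cause of these shifts was not tested. limma leaving out an array was not run, since no residual degree of freedom is left. No paired analysis was possible because each condition has 1 array. The comparison of both knockdowns and the differences between probes of 1 gene were added after seeing the data.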
